A study of Mus musculus with 20 samples.

Results

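Collagen and laminin chains are the subunits of the main structural proteins of the extracellular matrix, and their transcripts were read here across whole adrenal glands of mice. Rows of the expression table were chosen by symbol, as a collagen alpha chain (Col, a type number, a, a chain number) or a laminin chain (Lama, Lamb or Lamc and a number), and the 54 genes described here come from 47729 in the table. They comprise 44 collagen chains and 10 laminin chains. By the kind of assembly they fall into 11 fibrillar collagen chains, 16 basement membrane chains (6 of type IV collagen and the 10 laminins) and 27 other collagen chains. The rule used symbols alone and no measured value, but it was set with earlier results of these data known.

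The 20 libraries form 4 groups: 5 control females aged 1.5 to 3.4 months, 5 Bmal1 KO females aged 2.4 to 3.4 months, 6 control males aged 2.9 to 4.7 months and 4 Bmal1 KO males aged 2.9 to 3.7 months. Bmal1 (gene symbol Arntl) encodes a transcription factor of the circadian clock. Both genotypes carry SCC::Cre in their labels, so the Cre transgene is common to knockouts and controls. The side-chain cleavage enzyme gene Cyp11a1 marks steroid-producing cortical cells, so the driver acts there and not by design in the fibroblasts, vessels or nerves of the gland. The sources used here name no strain, deleted exons or hour of collection. Libraries of equal age are not stated to come from separate animals, so p-values measure the spread between these libraries, which may be technical in part. Ages overlap between the sexes only in part.

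Collagens are trimers of alpha chains. Types I, III and V build the interstitial fibrils, where type V sits inside the fibril and limits its width, and type IV forms the sheet-like network of basement membranes. Laminins are trimers of an alpha, a beta and a gamma chain that polymerise on the cell surface and bind integrins and dystroglycan. In the adrenal, cords of cortical cells lie against sinusoidal capillaries with a basement membrane between them, and a fibrous capsule surrounds the gland.

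Libraries held from 13421985 to 26742820 recovered reads. Arntl itself was at 494 to 860.3 normalised reads in control females, 833 to 1010 in Bmal1 KO females, 365 to 1092 in control males and 841 to 995 in Bmal1 KO males. These are sums over the whole gene, which do not check a deletion of some exons, so the genotype rests on the labels alone. On the second principal component (6.18% of the variance of the 5000 most variable genes) Bmal1 KO male 2 stood at -0.01, nearest to the control males at 0.54 to 23.7 and apart from the other Bmal1 KO males, at -23.1 to -19.4. Without it the male and sex calls described below were kept, except Col25a1, and values are given where they bear on a result. The labelled tissue showed its defining transcripts in every group: none of the 6 cortex markers and none of the 5 chromaffin markers was at 0. The 6 kidney markers summed to at most 23.1 normalised reads in any library, with Umod and Slc34a1 at 0 throughout.

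Together the 54 chains took 0.175% to 0.293% of a library's normalised reads. Basement membrane chains held the largest share of the 3 classes in every library, at 0.0905% to 0.142%. The fibrillar chains held 0.0270% to 0.0338% in control males and 0.0406% to 0.0545% in Bmal1 KO males. In females they held 0.0372% to 0.0647% in controls and 0.0701% to 0.0999% in knockouts. The larger part of the span from control males to Bmal1 KO females was Col5a3 alone, at 1041 to 1783 and 11453 to 15180 normalised reads. Levels of different chains are compared per kilobase of annotated exon, as the mean over all 20 libraries in normalised reads. Col6a1, a chain of the beaded microfibrils of type VI, led at 2017. It was followed by the type IV network chains Col4a1 at 936 and Col4a2 at 675, with the type V chain Col5a3 at 794 between them. Laminin chains came next, with Lamb2 at 446, Lamb1 at 423 and Lamc1 at 207, and Col5a1 at 241 stood among them. The chains of the classic fibrils were lower, with Col3a1 at 109, Col1a2 at 102 and Col1a1 at 62.0. The exonic length joins the exons of all annotated transcripts, which lowers the per-kilobase value of a gene with long annotated exons such as Col1a2 (12426 bases). At the other end, Col9a1 was the one chain that missed the filter for testing: it was at 2.21 in control male 6 and at 0 elsewhere. Type II collagen, a cartilage chain (Col2a1), was at 0.204 per kilobase.

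The question of the design is what loss of Bmal1 changes in females and in males. In Bmal1 KO females 1 of the 53 tested chains rose, Col5a3, and none fell. Over all 26612 genes tested, 1.12% rose and 0.635% fell in the same comparison. In Bmal1 KO males 2 chains rose, Col5a3 and Col5a1, and none fell, against 0.763% and 0.567% of all genes. A rise or fall means a Benjamini-Hochberg adjusted p under 0.05 over all genes in limma, on log2(value + 1), a scale that understates changes of low genes. The 0 chains that fell compare with 11 of 53 chains at an unadjusted p under 0.05 in either direction in females and 14 in males. Over all 26612 genes tested, 3110 and 2899 were at an unadjusted p under 0.05 in the same comparisons. edgeR called no chain lower in either sex, and DESeq2 called 1 lower in females, Col28a1, and none in males. Without control female 1 the count in females was 3, with Col5a1 and Col4a4 added, and without Bmal1 KO female 4 it was 2, with Col5a1 added. The median difference over the 53 chains was -0.09 in females and 0.20 in males on the log2 scale, against 0.00 and 0.00 over all genes. In a whole gland, fewer cells of a type and less RNA per cell cannot be told apart.

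**Figure D1:**
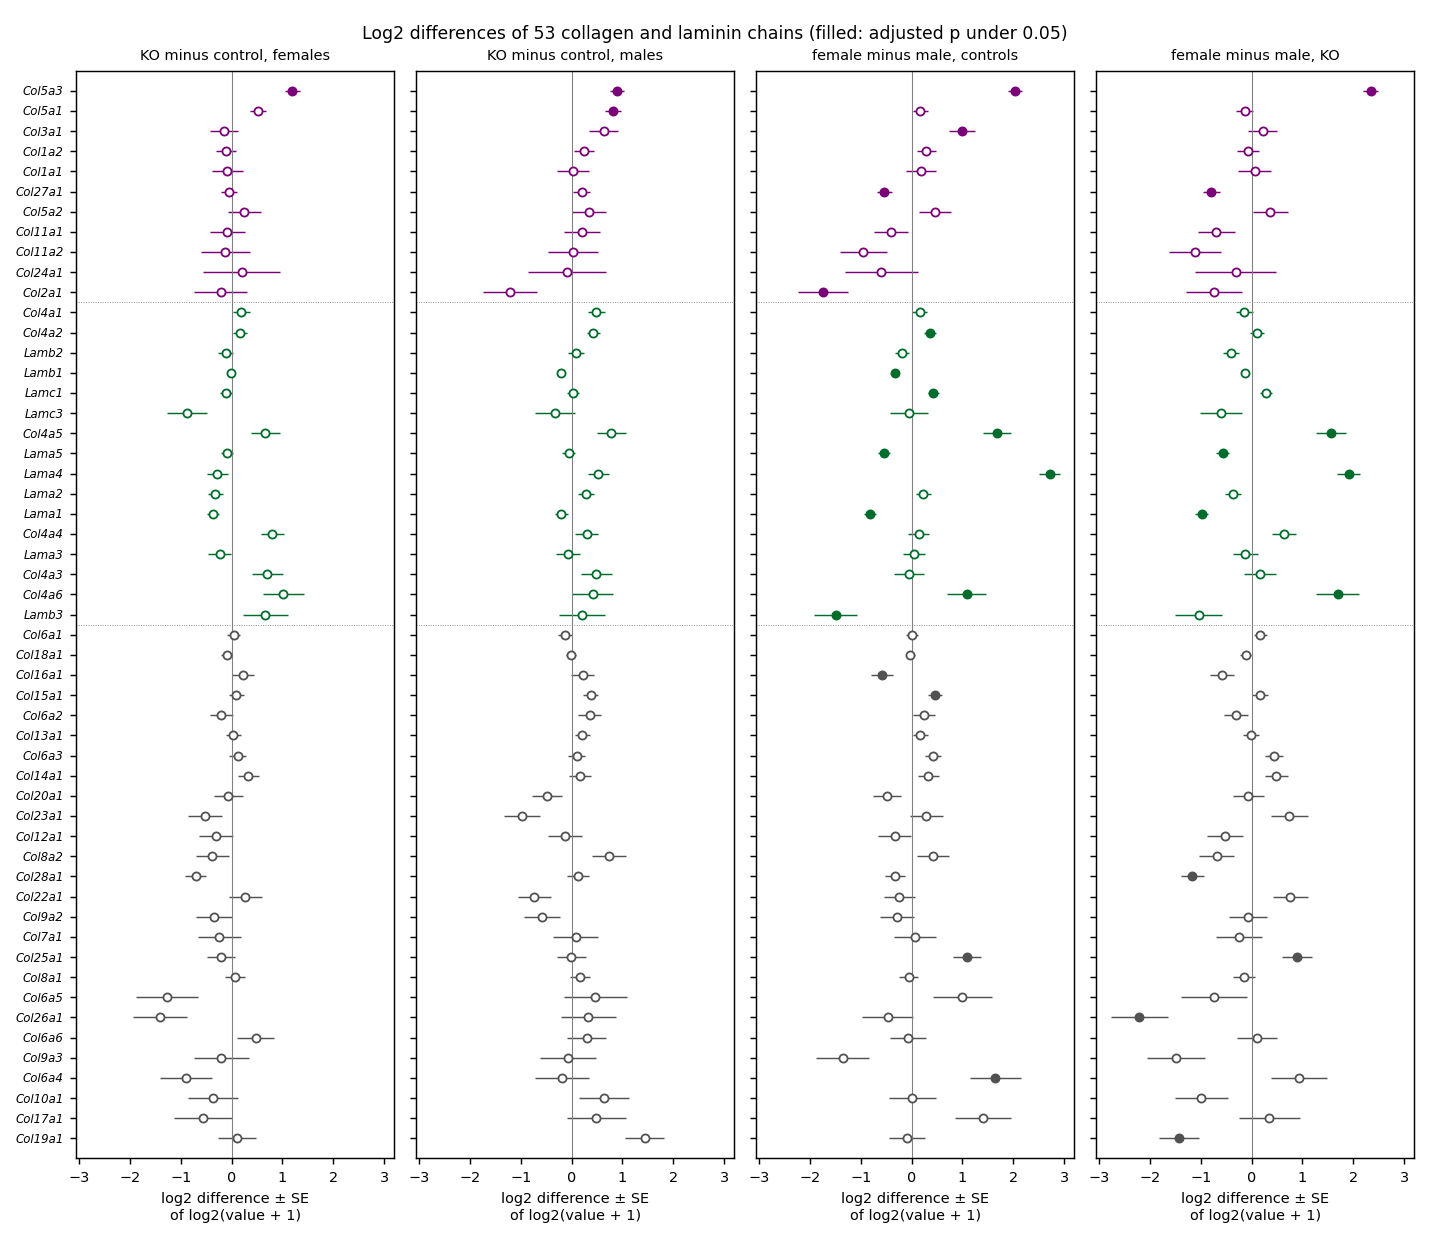
Log2 difference (horizontal axis, log2(value + 1) scale) of each tested collagen and laminin chain in the 4 comparisons named above the panels, with bars of the standard error, filled points for chains called at an adjusted p under 0.05, and purple, green and grey for fibrillar, basement membrane and other chains. Col5a3 stands to the right of 0 in all 4 panels, and most chains lie near 0 in the genotype panels.

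Type V chains gave the clearest genotype difference. Col5a3 encodes the alpha 3 chain of type V collagen, a less widely expressed chain than the alpha 1 and alpha 2 chains of the common type V trimer, and ENSMUSG00000004098 lies at chr9:20770050-20815067, minus strand (GRCm38, GENCODE M21, as for all coordinates here). Its normalised read counts were 6078, 4019, 5825, 6381 and 5229.6 in the 5 control females and 15180, 12029, 11453, 12219 and 11796 in the 5 Bmal1 KO females. Every knockout female lay above every control female. The difference was 1.20 ± 0.14 (SE) on the log2 scale, a fold of 2.29, with adjusted p = 2.41e-05. Control males ranged from 1041 to 1783 with a median of 1362, and the 4 Bmal1 KO males had 2845, 2331, 2304 and 2388. These groups did not overlap either, although both male groups lay below both female groups. The male difference was 0.89 ± 0.14 (SE), a fold of 1.86, with adjusted p = 0.00123. Without Bmal1 KO male 2 it was 0.92, with adjusted p = 0.00451.

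Col5a1, the chain that type V trimers have in common and that is needed for fibril formation, lies at chr2:27886425-28039514, plus strand (ENSMUSG00000026837). Its counts were 2507, 1219, 1898, 1899 and 1316 in control females and 2836, 2408, 2590.1, 1795 and 2706 in Bmal1 KO females. These ranges overlapped, and the difference of 0.51 ± 0.16 (SE) did not pass the test (adjusted p = 0.118). Control males ranged from 1339 to 1854 with a median of 1470.1, and Bmal1 KO males had 2763, 2918, 2356 and 2669. Here every knockout lay above every control, and Col5a1 rose by 0.82 ± 0.16 (SE) with adjusted p = 0.00866. Without Bmal1 KO male 2 the value was 0.78, with adjusted p = 0.0386. The difference between the female and the male effect was -0.31 ± 0.22 (SE) for Col5a1 (adjusted p = 0.919) and 0.30 ± 0.20 for Col5a3 (adjusted p = 0.895), so neither effect was shown to differ between the sexes. Col5a2, the other chain of the common trimer, was at 274 ± 70.6 (SD, n = 5) in control and 355 ± 165 (SD, n = 5) in knockout females, and at 202 ± 60.1 (SD, n = 6) and 259 ± 93.0 (SD, n = 4) in males. Its differences of 0.25 and 0.35 did not pass (adjusted p = 0.858 and 0.792).

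As a share of the summed per-kilobase level of the 3 type V chains, Col5a3 made up 77.5% ± 2.76 (SD) in control females and 84.9% ± 2.63 in Bmal1 KO females. In males it made up 49.4% ± 6.94 in controls and 51.4% ± 3.25 in knockouts, where Col5a1 held 45.3% ± 6.37 and 44.7% ± 2.22. Col5a2 was the least abundant in each group, at 1.72% ± 0.856 to 5.34% ± 1.68. Markers of mural cells summed to 2516 to 4758 normalised reads in control females and 2928 to 3405 in knockout females, and to 2426 to 5435 and 2899 to 4702 in males, with 0 of 6 genes called in either sex. Those of capsule and stroma summed to 3245 to 5429 and 2989.9 to 4174 in females and to 2898 to 5172 and 3703 to 5287 in males, with 0 of 7 called. None of these markers was at 0. Their part in the type V differences was not tested.

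**Figure D2:**
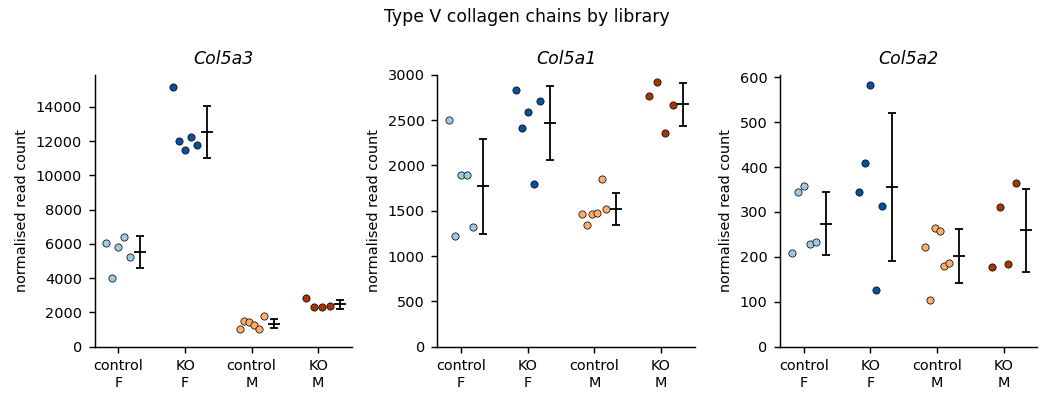
Normalised read counts (vertical axes, linear, each panel with its own scale) of the 3 type V chains in each of the 20 libraries, by group, with bars for the group mean and SD. Col5a3 was higher in every knockout than in every control of the same sex.

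The bases just upstream of the 2 type V genes that rose are shown because BMAL1 binds E-boxes, of the form CANNTG, with CACGTG as the canonical clock form. Capitals mark CANNTG matches. The sequences are from RefSeq on GRCm38.p6, read 5′ to 3′ on the strand of the gene and end at the base before its start: for Col5a3 at chr9:20815068-20815317, minus strand, and for Col5a1 at chr2:27886175-27886424, plus strand.
Col5a3: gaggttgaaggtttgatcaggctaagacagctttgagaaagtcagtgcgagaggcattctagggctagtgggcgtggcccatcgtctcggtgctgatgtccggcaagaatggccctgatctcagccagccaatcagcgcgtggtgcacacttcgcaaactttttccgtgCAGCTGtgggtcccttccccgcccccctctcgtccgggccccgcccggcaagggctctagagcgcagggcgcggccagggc
Col5a1: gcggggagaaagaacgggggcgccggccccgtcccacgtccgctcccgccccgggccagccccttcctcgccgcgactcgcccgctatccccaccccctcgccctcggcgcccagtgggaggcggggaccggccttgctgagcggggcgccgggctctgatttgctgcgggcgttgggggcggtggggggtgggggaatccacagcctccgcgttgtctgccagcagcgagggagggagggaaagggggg
The Col5a3 window held 1 match, CAGCTG, and the Col5a1 window none. The GC content was 62.8% and 76.4%.

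Of the 54 chains, 40 matched an entry of the promoter table by symbol, and their windows of 250 bases before the start were searched on both strands. CACGTG stood in 0 of 40, against 6.0% of all 32851 windows of that length. CANNTG, which contains every CACGTG match, stood in 24 of 40, against 66.2% of all. The D-box form TTATGNAA, bound by clock output factors, stood in 2 of 40 (Col13a1 and Col4a6), against 3.1%. A match is a description of letters, and its absence says only that the letters are not in that window.

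No type IV chain passed the test for genotype in either sex. All 6 had a positive difference in both, and they were not tested as a set. Of all 53 tested chains, 21 were above 0 in females and 36 in males, against 13269 and 13319 of 26612 genes. Col4a1 and Col4a2 form the type IV trimer present in nearly all basement membranes. Col4a1 counts were 7911, 4542, 8038, 6902 and 5924 in control females and 6153, 8231, 8089.6, 7332 and 7657 in knockout females. Control males ranged from 4275 to 7524 with a median of 6257, and knockout males had 8605, 8189, 8674 and 7459. The groups overlapped in both sexes, and the differences were 0.19 ± 0.16 and 0.49 ± 0.16 (SE), with adjusted p = 0.731 and 0.199. Col4a2 gave 0.17 ± 0.13 and 0.43 ± 0.13 (adjusted p = 0.698 and 0.147).

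Col4a3 and Col4a4 belong with Col4a5 to the trimer of mature glomerular and other specialised basement membranes, and Col4a6 pairs with Col4a5 in others. Col4a4 was at 422, 338, 185, 313 and 215 in control and 545, 616, 407, 435 and 481 in knockout females, ranges that overlapped, and the difference of 0.80 ± 0.22 (SE) gave adjusted p = 0.0765. DESeq2 on the recovered reads called it. In males Col4a4 differed by 0.30 ± 0.23 (adjusted p = 0.708). The values for Col4a3 were 0.70 ± 0.30 in females and 0.49 ± 0.31 in males, those for Col4a5 were 0.66 ± 0.28 and 0.78 ± 0.29, and those for Col4a6 were 1.02 ± 0.40 and 0.41 ± 0.41, with adjusted p from 0.264 to 0.803.

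The 6 type IV genes stand as 3 head-to-head pairs on GRCm38 in GENCODE M21. Col4a1 and Col4a2 lie on chr8, where their annotated first exons share 22 bases on opposite strands. Col4a4 and Col4a3 lie on chr1 with starts 72 bases apart, and Col4a6 and Col4a5 on chrX with starts 1309 bases apart. The log2 ratio of Col4a1 to Col4a2 per kilobase had an SD between 0.06 and 0.19 within a group. Col4a1 alone had 0.10 to 0.36 and Col4a2 alone 0.05 to 0.32. In control females and knockout males the ratio varied about as much as Col4a2 alone, whose SD was 0.20 and 0.05. The mean of the log2 ratio was 0.35 ± 0.19 (SD) in control females, 0.37 ± 0.09 in knockout females, 0.55 ± 0.12 in control males and 0.61 ± 0.06 in knockout males. Col4a4 exceeded Col4a3 on average in each group, with log2 ratios of Col4a3 to Col4a4 from -0.81 to -0.33. Reads in shared or antisense exons cannot be assigned where strand was not used, and the sources used here do not give the setting. The largest such overlaps were 6.3% of the exonic bases of Lamc3, 6.1% of Col9a3 and 5.6% of Col4a3.

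The chains of the major interstitial fibrils did not pass the test for genotype. Col1a1 and Col1a2 form type I collagen, the main fibril of capsule and tendon. Col1a1 was at 579, 490.4, 388, 466 and 241 in control females, 333, 606, 383, 203 and 579.6 in knockout females and 329, 524, 317 and 356 in knockout males, and ranged from 194 to 602 with a median of 369 in control males. The groups overlapped, with differences of -0.09 ± 0.31 and 0.03 ± 0.31 (SE) in females and males and unadjusted 95% intervals of -0.69 to 0.51 and -0.58 to 0.64. Col1a2 differed by -0.11 and 0.24 (95% intervals -0.50 to 0.28 and -0.16 to 0.64). Col3a1, the fibril chain of vessel walls and soft organs, was at 1369 ± 438 (SD, n = 5) and 1218 ± 283 (SD, n = 5) in females and at 702 ± 252 (SD, n = 6) and 1070.3 ± 375 (SD, n = 4) in males. It differed by -0.15 ± 0.27 and 0.63 ± 0.28 (adjusted p = 0.915 and 0.405). The unadjusted 95% interval of Col3a1 in males was 0.08 to 1.18. No test compared these chains with Col5a1, whose male value carries its own error.

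Type VI collagen forms microfibrils around cells from the alpha 1, 2 and 3 chains. Col6a1 was at 9154 ± 2482 (SD, n = 5), 9122 ± 444 (SD, n = 5), 8825 ± 396 (SD, n = 6) and 8081 ± 467 (SD, n = 4) normalised reads in control females, knockout females, control males and knockout males. Its genotype differences were 0.04 ± 0.13 and -0.13 ± 0.13 (SE). Col6a2 differed by -0.20 and 0.36 and Col6a3 by 0.12 and 0.10, none called. Col15a1 and Col18a1 encode multiplexins of the vessel and epithelial basement membrane zone, Col18a1 being the source of endostatin. Col15a1 differed by 0.09 and 0.37 (adjusted p = 0.9 and 0.349), and Col18a1 by -0.10 and -0.01.

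Among the laminin alpha chains, which carry the receptor-binding domain, Lama2 of muscle and nerve differed by -0.32 ± 0.15 in females and 0.28 ± 0.15 in males, and Lama4 of vessels by -0.28 ± 0.21 and 0.53 ± 0.21. Lama5, broadly expressed in adult basement membranes, differed by -0.09 ± 0.12 and -0.06 ± 0.12, and Lama1, the main alpha chain of the early embryo, by -0.37 ± 0.12 and -0.21 ± 0.13. Among the beta and gamma chains Lamb1 differed by -0.02 ± 0.07 and -0.21 ± 0.07, Lamb2 by -0.11 ± 0.15 and 0.09 ± 0.15 and Lamc1 by -0.11 ± 0.11 and 0.03 ± 0.12. None of these passed, with adjusted p of 0.178 or more. Lamb1 in males is a small difference without overlap: knockouts had 3937, 4041, 4313 and 4367, and controls ranged from 4447 to 5346 with a median of 4835. Col28a1 in females did not overlap either, at 90.5, 59.8, 60.3, 79.7 and 66.9 in controls and 47.7, 46.1, 56.7, 32.5 and 35.0 in knockouts (-0.71 ± 0.21, adjusted p = 0.0955), and DESeq2 called it. The remaining 21 chains, neither common chains of the main matrix types nor called in a comparison, include Lama3, Lamc3, Col12a1, Col14a1 and Col7a1. The 20 of them tested had log2 differences of -1.27 to 0.47 in females and -0.98 to 0.74 in males, with 0 called.

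Lama3 and Lamb3 are laminin chains of epithelia. Lama3 was at 329 ± 61.4 (SD, n = 5) normalised reads in control and 278 ± 52.2 (SD, n = 5) in knockout females, and at 332 ± 127 (SD, n = 6) and 309 ± 85.2 (SD, n = 4) in males. Lamb3 was at 14.6 ± 9.10 (SD, n = 5) and 22.5 ± 10.5 (SD, n = 5) in females, and at 41.3 ± 21.4 (SD, n = 6) and 44.6 ± 13.5 (SD, n = 4) in males. Neither was called by genotype, with log2 differences of -0.24 and -0.07 for Lama3 and 0.66 and 0.21 for Lamb3 in females and males.

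The test of the difference between the female and the male genotype effect called 0 of 53 chains by limma. It called 0 by edgeR and by DESeq2 too. At an unadjusted p under 0.05 in limma there were 7 chains, against 1715 of 26612 genes. Over all genes 0.0301% were called, which is 8 genes, and 0 to 16 on leaving out 1 library. The 2 laminins among the 7 were Lama4, at -0.81 ± 0.30 (SE, adjusted p = 0.639), and Lama2, at -0.60 ± 0.21 (adjusted p = 0.599), both with the lower effect in females. The other 5 were Col26a1, Col19a1, Col8a2, Col28a1 and Col22a1. On simulated data this test recovered 14% of genes given a log2 difference of 1, and 97% of those given 2. The genotype tests recovered 75% in females and 80.5% in males at a log2 difference of 1. The simulation gave all genes the same spread and changed no low genes. Several chains are lower or vary more, so these percentages are not the recovery for each chain. The 0 calls do not show equal effects in the 2 sexes.

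More chains were called by sex than by genotype, as were more genes over the whole table. In controls 10 of 53 chains were higher in females and 7 lower, against 13.5% and 12.9% of all genes. In Bmal1 KO glands 5 were higher and 6 lower, against 12.1% and 10.6%. Apart from the 10 higher in control females, these counts are close to the shares over all genes, and none is read as particular to the chains. The 2 sex comparisons use different libraries. Control ages ran from 1.5 to 3.4 months in females and 2.9 to 4.7 in males. With age as a covariate 8 of the 17 control calls remained: Col25a1, Col4a5, Col4a6, Col5a3, Lama1, Lama4, Lama5 and Lamb1. Without the 2 control females of 1.5 months, 11 chains were called. For the other control calls age and sex cannot be told apart. The 4 markers of the X-zone, the inner cortical zone that persists in young female mice, were higher in females for 4 of 4 in both genotypes and summed to 37664 to 137550 and 32182 to 101820 normalised reads in control and knockout females against 599 to 1247 and 503 to 723 in males. Their part in the sex differences was not tested.

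Lama4, an alpha chain of endothelial basement membranes, had the widest sex difference of the 53 tested chains in controls. It lies at chr10:38965515-39110188, plus strand (ENSMUSG00000019846). Control females had 991, 1174, 1631, 1254 and 1405 normalised reads and control males ranged from 146 to 391 with a median of 169.5. The lowest female was above the highest male. The difference was 2.72 ± 0.20 (SE), with adjusted p = 3.08e-09. Bmal1 KO females had 1104, 1169, 886, 1068 and 1029 and Bmal1 KO males 205, 281, 288 and 363, again with no overlap, and differed by 1.91 ± 0.22 (adjusted p = 2.25e-06). Lama4 made up 38.0% ± 5.83 (SD) of the per-kilobase level of the 5 alpha chains in control females and 7.57% ± 4.02 in control males.

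Lama1 and Lama5 went the other way. Lama1 was at 317, 284, 308, 298 and 383 in control females and ranged from 435 to 665 with a median of 589 in control males, with no overlap and a difference of -0.82 ± 0.12 (SE, adjusted p = 2.57e-05). Knockout females had 292, 256, 273, 182 and 239 and knockout males 493, 509, 471 and 469.5, which differed by -0.98 ± 0.13 (adjusted p = 1.39e-05). Lama5 was lower in females by a log2 difference of -0.53 ± 0.12 in controls and -0.57 ± 0.13 in knockouts (adjusted p = 0.00175 and 0.00294), and the sexes did not overlap in either genotype. Lama1 held 11.7% ± 1.08 of the alpha chains in control females and 25.3% ± 2.87 in control males, and Lama5 18.3% ± 2.20 and 32.3% ± 4.03. Lama2 held a like share in both, 21.1% ± 4.44 and 21.7% ± 3.77, and was not called by sex.

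**Figure D3:**
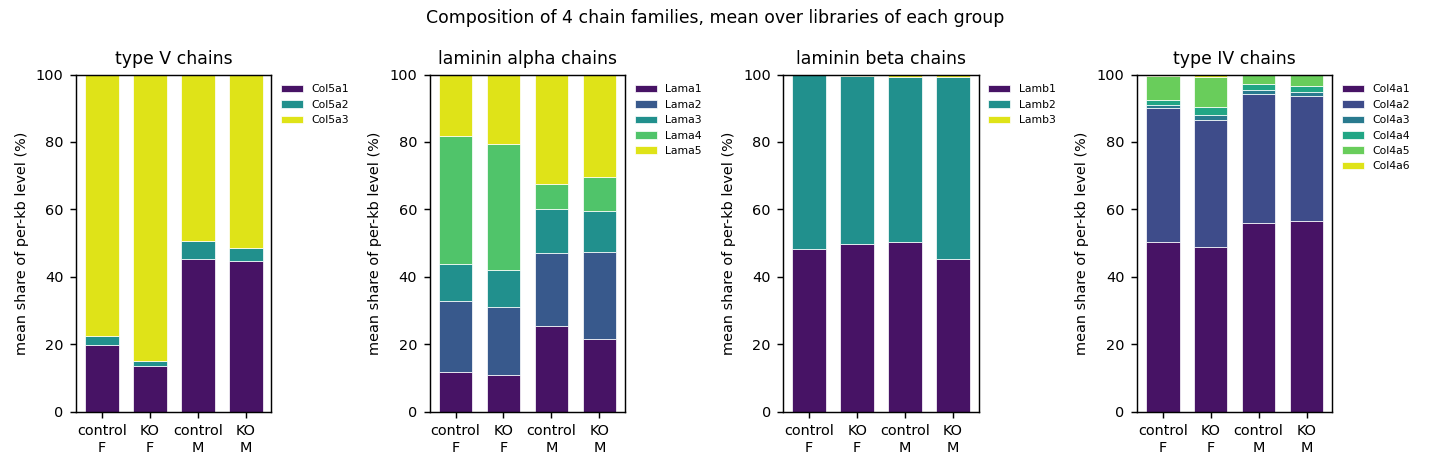
Share in percent (vertical axis, 0 to 100) of each chain in the summed per-kilobase level of its family, as group means over the libraries, for the type V, laminin alpha, laminin beta and type IV chains. Lama4 takes up a greater part of the laminin alpha bar in both female groups, and Col5a3 of the type V bar.

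Of the laminin beta and gamma chains, Lamb1 was lower in control females than in control males by a log2 difference of -0.32 ± 0.07 (SE, adjusted p = 0.00113), with no overlap, and Lamc1 was higher by 0.43 ± 0.11 (adjusted p = 0.00582). Neither was called in knockouts (-0.13 ± 0.07 and 0.28 ± 0.12). Lamb1 and Lamc1 are partners in most common laminins. Their log2 ratio per kilobase was 0.69 ± 0.13 (SD) in control and 0.78 ± 0.13 in knockout females, against 1.44 ± 0.16 in control and 1.20 ± 0.07 in knockout males. No female library reached the lowest male one: female ratios ended at 0.98 and male ratios began at 1.10. Lamb3 was lower in control females by a log2 difference of -1.50 ± 0.42 (adjusted p = 0.0113), at 14.6, 6.18, 27.9, 18.1 and 6.17 against males from 19.4 to 71.2 with a median of 34.9, which overlapped. Lamb2 was not called by sex, with -0.19 in controls and -0.40 in knockouts.

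Col4a5, a chain of the specialised type IV trimers whose human gene is mutated in Alport syndrome, was higher in females. It lies at chrX:141475385-141689234, plus strand (ENSMUSG00000031274). Control females had 914, 586, 1225, 1150.2 and 362 normalised reads and control males ranged from 153 to 344 with a median of 269.6, a difference of 1.68 ± 0.27 (SE, adjusted p = 8.31e-05). Knockout females had 1083, 1220.3, 1594, 991 and 1307 and knockout males 385, 582, 335 and 393, a difference of 1.56 ± 0.30 (adjusted p = 0.000627). The sexes did not overlap in either genotype. Its head-to-head neighbour Col4a6, at chrX:141165403-141474076, minus strand, was scarcer, at 115, 50.5, 97.2, 96.9 and 19.6 in control and 109, 145, 228, 85.3 and 125 in knockout females. Control males ranged from 21.0 to 42.5 with a median of 31.4 and knockout males had 27.9, 79.7, 33.7 and 33.5, with Bmal1 KO male 2 the highest. Col4a6 differed by 1.09 ± 0.38 in controls, where the sexes overlapped (adjusted p = 0.0402), and by 1.69 ± 0.42 in knockouts, where they did not (adjusted p = 0.00597). Without Bmal1 KO male 2 the knockout value was 2.02 (adjusted p = 0.00244). The control call was lost with no filter on low values, in a fit of the 2 control groups and without any 1 of control females 1, 3 and 4 and control males 2, 3, 5 and 6 (adjusted p = 0.0513 to 0.112).

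The upstream bases of this pair are shown because both genes were higher in females and start near each other in opposite directions. They are from RefSeq on GRCm38.p6, 5′ to 3′ on each gene's strand, with CANNTG matches in capitals: chrX:141475169-141475384, plus strand for Col4a5, which stops short of the annotated first exons, and chrX:141474077-141474326, minus strand for Col4a6.
Col4a5: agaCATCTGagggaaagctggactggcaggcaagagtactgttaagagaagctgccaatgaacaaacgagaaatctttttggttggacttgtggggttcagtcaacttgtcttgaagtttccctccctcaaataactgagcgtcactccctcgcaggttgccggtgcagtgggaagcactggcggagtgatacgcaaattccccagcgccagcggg
Col4a6: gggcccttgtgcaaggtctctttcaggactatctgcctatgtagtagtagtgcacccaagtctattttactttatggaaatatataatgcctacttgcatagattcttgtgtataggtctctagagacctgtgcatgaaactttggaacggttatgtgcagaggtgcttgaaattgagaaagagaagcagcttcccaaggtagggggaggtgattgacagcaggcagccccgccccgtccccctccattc
The Col4a5 stretch of 216 bases held 1 match, CATCTG, and the Col4a6 window none. The GC content was 52.3% and 47.6%.

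**Figure D4:**
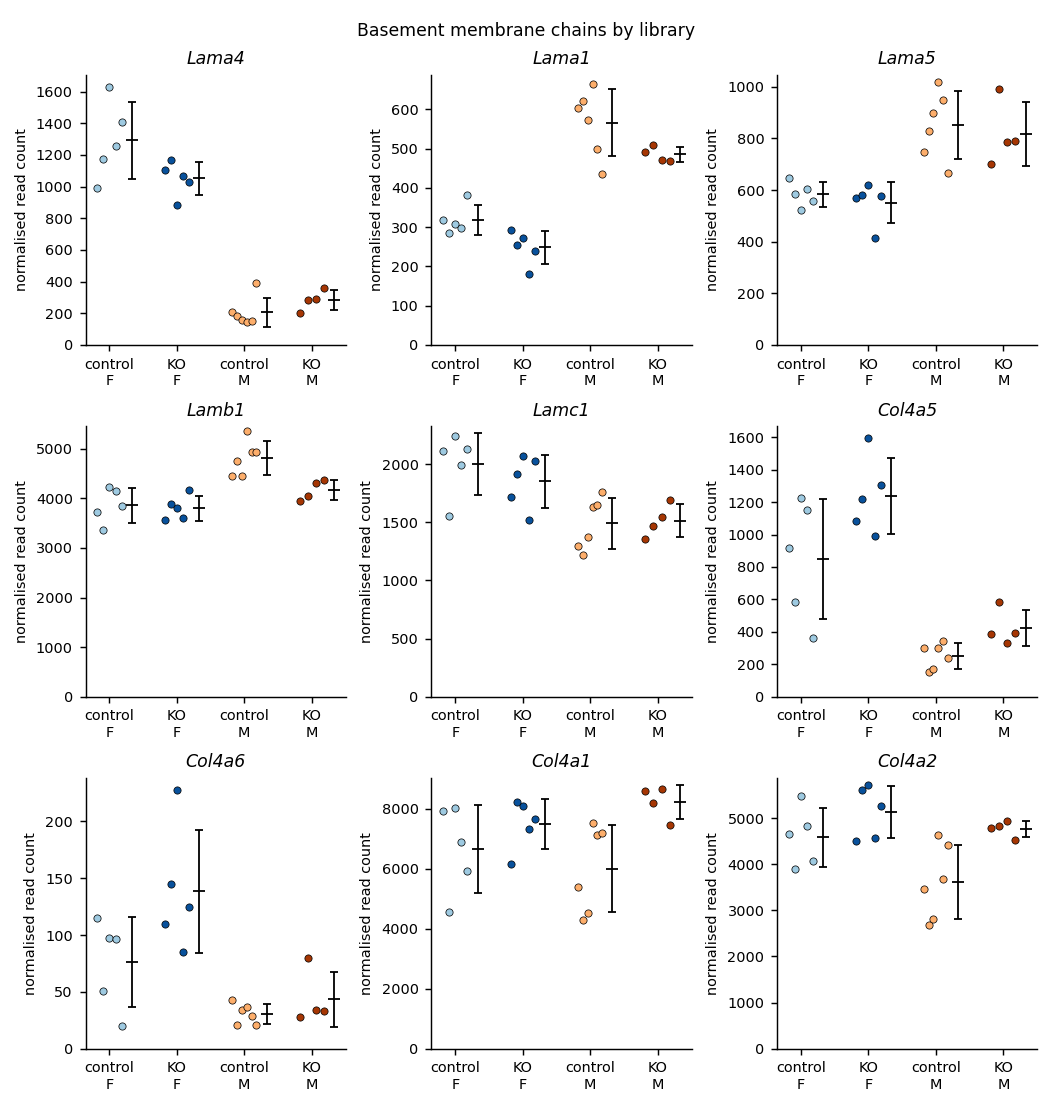
Normalised read counts (vertical axes, each panel with its own scale) of basement membrane chains in each of the 20 libraries by group, with bars for the mean and SD. Within each genotype every female library lies above every male one for Lama4 and Col4a5 and below every male one for Lama1 and Lama5.

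Col5a3, which rose in knockouts of both sexes, also differed by sex, at 2.04 ± 0.13 (SE) in controls and 2.34 ± 0.15 in knockouts (adjusted p = 4.9e-10 and 3.3e-10), with no overlap. The lowest control female, at 4019, lay above the highest knockout male, at 2845. Col5a1 did not pass by sex, with 0.17 and -0.13. The log2 ratio of Col5a3 to Col5a1 per kilobase was 1.99 ± 0.26 (SD) in control and 2.67 ± 0.26 in knockout females, and 0.12 ± 0.40 and 0.20 ± 0.16 in males.

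Other chains were higher in control females. Col3a1 was higher by 0.99 ± 0.26 (SE, adjusted p = 0.00753), Col4a2 by 0.36 ± 0.12 (adjusted p = 0.0374) and Col15a1 by 0.46 ± 0.14 (adjusted p = 0.022), each with overlapping groups and none called in knockouts. The Col4a2 call was lost without any 1 of control females 1, 3 and 4 and control males 1, 2 and 3 (adjusted p = 0.0611 to 0.109), and that of Col15a1 without any 1 of control females 1, 3 and 4 and control males 2 and 4 (adjusted p = 0.051 to 0.0533).

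Col25a1, a transmembrane collagen known from neurons and amyloid plaques, was higher in females in controls by 1.09 ± 0.27 (adjusted p = 0.00446) and in knockouts by 0.89 ± 0.30 (adjusted p = 0.0351). Without Bmal1 KO male 2 the latter was 0.77, with adjusted p = 0.105, and it was lost without any 1 of 6 other knockout libraries (Bmal1 KO females 1, 3, 4 and 5 and Bmal1 KO males 1 and 3). Col6a4, a type VI chain, had few reads: 32.2, 8.24, 16.2, 31.7 and 22.6 in control females and 1.54 to 18.8 in control males (adjusted p = 0.0168).

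Col27a1, a fibrillar chain of cartilage and developing tissues, was lower in females in both genotypes, with log2 differences of -0.54 ± 0.15 in controls and -0.79 ± 0.17 in knockouts (adjusted p = 0.0129 and 0.0018). Knockout females had 619, 534, 447, 392 and 756 and knockout males 833, 942, 1012 and 923, without overlap. Col16a1, a fibril-associated chain, was lower in control females by a log2 difference of -0.59 ± 0.21 (adjusted p = 0.0457). That call was lost on leaving out any 1 of 15 libraries of the 20 (adjusted p = 0.051 to 0.147). In knockouts Col28a1, a von Willebrand factor A domain collagen of nerve, was lower in females with a log2 difference of -1.16 ± 0.22 (adjusted p = 0.000528), with no overlap. Col26a1 was lower there too, with -2.21 ± 0.56 (adjusted p = 0.00675), but it had few reads and the groups overlapped. Knockout females had 2.80, 28.8, 19.8, 3.37 and 8.28 normalised reads and knockout males 23.9, 36.2, 106 and 43.2. Col28a1 and Col26a1 were not shown to have a different sex effect in controls (adjusted p = 0.599 and 0.728 in the interaction).

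Col2a1 and Col19a1, chains of cartilage and of muscle and nerve, were called on a handful of reads. Col2a1 had 2 reads over the 5 control females and 27 over the 6 control males, of which control males 3, 4 and 5 had 8 each (adjusted p = 0.0128). Col19a1 had 3 reads over the 5 knockout females and 12 over the 4 knockout males (adjusted p = 0.0126). Most of these libraries stood at or near the floor of 3 reads, so no fold is given. The 20 tested chains that were neither common chains nor called had sex differences of -1.36 to 1.40 among controls and -1.49 to 0.76 among knockouts, with 0 called.

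Chains that assemble into the same trimer were set against each other per kilobase. Col1a1 and Col1a2, which join in type I collagen, had log2 ratios from -0.89 ± 0.13 (SD) in knockout males to -0.67 ± 0.55 in control males, a span smaller than the SD within 3 of the 4 groups. The ratio carries the long annotated exons of Col1a2 and says nothing about the absolute trimer. Col6a1 exceeded Col6a2 by a median of 28.2 to 39.5 times in the 4 groups, while Col6a2 and Col6a3 lay within a median of 0.99 to 1.64 of each other. Col4a5 exceeded Col4a6 by a median of 9.11 to 14.1 times. Ratios of chains in 1 library are free of its scaling factor.

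**Figure D5:**
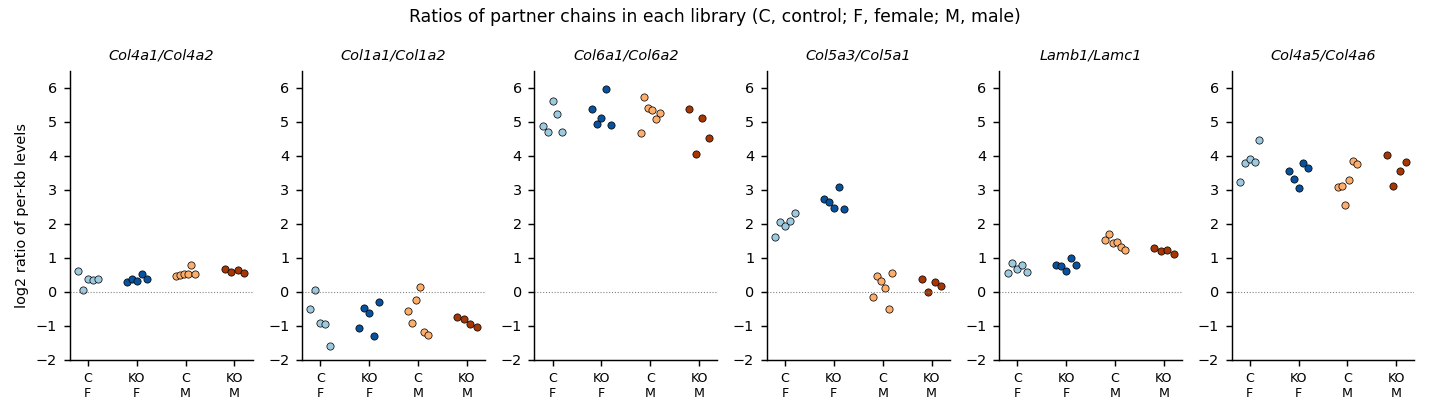
Log2 ratio of the per-kilobase levels (vertical axis) of chains that assemble together, 1 point per library, by group. The Lamb1 to Lamc1 ratio is lower in every female library than in every male one, and the Col4a1 to Col4a2 ratio has an SD of 0.06 to 0.19 within a group.

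Within groups, the slope on age in months called 0 of 53 chains and 0 of 26612 genes by limma, which is 0% of all genes. At an unadjusted p under 0.05 there were 4 of 53 chains, against 1939 of 26612 genes. These shares are close, so the 4 are not read as age effects particular to the chains. They were Col11a1, a minor fibrillar chain of cartilage (0.42 ± 0.18 per month, SE), Col13a1, a transmembrane collagen (-0.18 ± 0.08), Lamc1 (-0.15 ± 0.06) and Lamb1 (-0.08 ± 0.04). edgeR and DESeq2 called 0 chains.

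Genes that process, bind or cut these chains were read from 6 lists. Over all genes 1.12% rose and 0.635% fell in knockout females, and 0.763% and 0.567% in knockout males. The few calls per list are not read as particular to the lists. Of 31 tested genes for collagen processing and crosslinking, 1 rose in knockout females, the lysyl oxidase Loxl4 (1.72 ± 0.30, SE, adjusted p = 0.00227), and 1 in knockout males, Loxl2 (0.91 ± 0.17, adjusted p = 0.00521). Loxl2 differed by 0.38 ± 0.16 in females and Loxl4 by 0.31 ± 0.30 in males, neither called. None of the 31 fell, and the list medians were 0.03 and 0.01 in females and males. Of 13 basement membrane partners only Tinagl1, a matricellular protein that binds laminin and integrins, rose, in both sexes (0.61 ± 0.09 and 0.76 ± 0.09). Of 22 genes of the interstitial matrix, Fbn1, the fibrillin of microfibrils, rose in both (0.82 ± 0.17 and 1.15 ± 0.17), and Tnxb, a tenascin of fibrils, fell in males (-0.42 ± 0.10). Of 17 receptors, the integrin subunits Itga2 (0.83 ± 0.20 and 0.83 ± 0.20) and Itgb1 (0.51 ± 0.07 and 0.46 ± 0.07), which pair as a collagen receptor, rose in both sexes. Bcam, a receptor for Lama5, rose in males (0.59 ± 0.14), with 0.42 ± 0.14 in females, not called. No gene of the 6 lists was called for a difference between the female and the male effect. Calls in 1 sex are therefore not shown to be particular to that sex.

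Of 19 matrix proteases and inhibitors none was called by genotype in either sex by limma. At an unadjusted p under 0.05 there were 3 in each sex, against 3110 of 26612 genes in females and 2899 in males. Of 16 genes of TGF-beta signalling, a main inducer of fibrillar collagens, none was called in females and Tgfbi fell in males (-0.86 ± 0.19). By sex more list genes were called, as were more of all genes (13.5% higher and 12.9% lower in females among controls, 12.1% and 10.6% among knockouts), and nothing is read as particular to the lists. In controls 6 of 31 processing genes were higher in females and 3 lower, with Lox (1.19 ± 0.20) higher and Fkbp10 (-1.08 ± 0.14) lower. Of 22 interstitial matrix genes 8 were higher and 1 lower. In knockouts 5 of 31 processing genes were higher and 2 lower, and 3 of 22 interstitial genes were higher, among them Tnc (1.72 ± 0.26).

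Cell type markers are given beside these results, and their part in them was not tested. Of the 8 endothelial markers none was called by genotype, and they summed to 15771 to 16909 normalised reads in control females, 16428 to 20301 in knockout females, 16483 to 19213 in control males and 18695 to 21285 in knockout males. In controls 3 of the 8 were lower in females (Tek, Tie1 and Flt1), against 12.9% of all genes. Among knockouts Tek, Tie1 and Kdr were lower in females, against 10.6% of all genes. Lama4 was higher in females in both genotypes. Schwann markers summed to 619 to 850.4, 502 to 695, 728 to 1435 and 911 to 1343 in the same order of groups. Of these 6 markers, 3 were lower in knockout females than in knockout males, against 10.6% of all genes, and Col28a1 was lower too. In controls 1 of 6 was lower in females (Ncam1), against 12.9% of all genes. By genotype in females, Thrb rose (0.61 ± 0.11) and Cyp2f2 fell (-2.82 ± 0.37) among the X-zone markers, and Mcm6 (1.09 ± 0.23) and Pcna (0.48 ± 0.10) rose among 6 proliferation markers. In males the cortex markers Star (-0.69 ± 0.15) and Cyp11a1 (-0.71 ± 0.16) fell. The 5 chromaffin and 5 adipocyte markers were not called by genotype in either sex.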

How the data were processed

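RNA extracted from whole adrenals was sequenced in 20 libraries. The deposited table holds 1 signal per gene and library. Per the submitters' processing notes, FastQC, MultiQC, featureCounts, Salmon, DESeq2 and the builds mm10 and GRCm38 were used, with roles, versions, aligner and strand setting not given in the sources used here. 100% of the deposited values were whole multiples of 1 step per library (tolerance 0.001 read), so the signal is reads divided by 1 factor per library, called normalised read count. The 20 columns carry the sample titles.

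The test was limma-trend (limma 3.58.1, R 4.3.3) on log2(value + 1), with 1 mean for each group and all 20 libraries in the fit. It covered the 26612 genes that reached 1 in 4 or more libraries. Calls use Benjamini-Hochberg adjusted p under 0.05 over all genes. This is the test chosen for the signal unit. The age slope adds age in months to the groups. All adjusted p-values are limma's unless another tool is named. Per-kilobase levels divide by the union of a gene's exons in GENCODE M21. No 2 libraries of a group agreed within sampling noise, and 13350 genes were at 0 in all libraries. The members, gene lists and tests were chosen with earlier results of these data known, so they are no independent support. 1 chain that fits the symbol rule is not reported here. Genes named singly are the common chains of the main matrix types and every other chain called. Of each further list only called genes among the 3 largest changes could be named, and not all were. Alternatives were pseudocounts of 0.1 and 10, filters, TMM scaling, edgeR 4.0.16 and DESeq2 1.42.0 on recovered reads, fits of only the compared groups, age, the replicate block and leaving out each library. Scripts were tested on simulated data. The floor of detection is 3 reads and covers counting error only.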

Additional observations from a re-analysis of the deposited data

Results flagged for a closer look

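Each of the values below lies further from the rest of its group than Dixon's 95% limit allows. Chance flags about 1 in 20 groups, and 132 pairs of a chain and a group were examined, of which 11 had such a value. Col16a1 in control male 6 was at 527 normalised reads, below the other libraries of the group (926 to 1096). For Col18a1, control female 2 stood at 1436, above the others (1206 to 1269.8). Col2a1 in Bmal1 KO female 2 was at 0.961 normalised reads, above the other libraries of the group (all at 0). For Col4a6, Bmal1 KO male 2 stood at 79.7, above the others (27.9 to 33.7). Col5a1 in control male 5 was at 1854 normalised reads, above the other libraries of the group (1339 to 1524). For Col5a3, Bmal1 KO female 1 stood at 15180, above the others (11453 to 12219). Col5a3 in Bmal1 KO male 1 was at 2845 normalised reads, above the other libraries of the group (2304 to 2388). For Col6a4, Bmal1 KO female 4 stood at 5.61, below the others (11.5 to 12.1). Lama2 in control male 1 was at 1119 normalised reads, above the other libraries of the group (711 to 807). For Lama4, control male 6 stood at 391, above the others (146 to 208). Lama5 in Bmal1 KO female 4 was at 413 normalised reads, below the other libraries of the group (569.9 to 621). The Col5a3 values bear on the type V result, where leaving out either library kept the call. The Col4a6 value in Bmal1 KO male 2 is the highest of the knockout males. The Col16a1 and Lama4 values are both of control male 6, whose Arntl, at 1092, was the highest of the control males. Leaving out control male 6 kept the sex calls of both chains in controls.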

How the results depend on the processing

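No named chain reversed its direction under an alternative run, but the split of higher and lower calls moved. In knockout against control females the count of 1 became 3 with DESeq2 (2 higher, 1 lower), and 1 to 3 on leaving out 1 library: 2 without Bmal1 KO female 4 and 3 without control female 1. In males it was 2, and 2 to 3 on leaving out 1 library. By sex the count of 17 in controls became 8 with age as a covariate and 11 without the libraries of 1.5 months, and 13 to 18 on leaving out 1 library. In knockouts the count of 11 (5 higher, 6 lower) was 10 to 13 on leaving out 1 library, 14 in a fit of the 2 groups (7 and 7), 13 with DESeq2 (7 and 6) and 11 with the filter at 10 (6 and 5). The control split of 10 higher and 7 lower became 8 and 8 in a fit of the 2 groups. The interaction and the age slope stayed at 0 chains in every alternative run. A fit of only the groups compared is the same fit for the interaction and was not run.

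Over all genes, the count for females moved from 467 to 906 with DESeq2 and 264 without the libraries of 1.5 months, for males from 354 to 730 with DESeq2, 219 in a fit of the 2 groups, 229 without control male 2 and 217 without Bmal1 KO male 4, for the interaction from 8 to 70 with DESeq2, 0 with age and 0 to 16 on leaving out 1 library (0 without control female 4 or Bmal1 KO male 2, 3 or 4, 16 without control female 5 or control male 4), and for sex in controls from 7023 to 3746 with age. The age slope went from 0 genes to 36 with DESeq2 and to 1 without control male 1 or Bmal1 KO male 4.

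The labels do not say that replicate numbers pair the libraries, and they were not treated as pairs, since not every same-numbered pair correlated above 0.1. Same-numbered libraries correlated in their deviations at 0.384, 0.205, 0.083, 0.254 and -0.069 in females and -0.173, -0.035, -0.036 and -0.183 in males. Of the female pairs 4 of 5 correlated best with their own number, and of the male pairs 0 of 4, and female pairs 1 and 2 share an age, which is a hint from the data and not the design. With the replicate block the counts were 1, 3, 0, 16, 12 and 0 for the 6 comparisons in the order given. Reads limit Col2a1, Col19a1 and Col6a4, whose libraries often lie near 3 reads. They also limit Col26a1, which had 3 reads in each of Bmal1 KO females 1 and 4.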
